A study of Mus musculus with 11 samples.

Results

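Markers of cholangiocytes, the epithelial cells that line bile ducts, and of liver progenitor cells were examined in whole-liver RNA from mice with and without the NF-κB regulator Nemo in hepatocytes. The set held 10 genes, Krt7, Krt19, Krt23, Epcam, Sox9, Cd24a, Prom1, Bicc1, Tspan8 and Cldn7, out of 19938 genes with a single-gene probe set. The rule lists them by name, but the list was chosen with earlier results of these data known. Each was read from the probe set that carries its symbol alone. Bicc1 had 2 such probe sets, and the one with the higher mean was used. All 10 genes had a measured value in every array, and no filter on low values was applied. Several signals were low beside the median of 6.29 (log2) over all probe sets. Mean values were 5.72 for Tspan8, 6.12 for Krt23 and 6.15 for Epcam. Those of Cldn7 (6.38), Krt19 (6.45), Krt7 (6.49) and Prom1 (6.49) lay just above that median. How far low signal limits the differences of these genes was not tested.

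The livers came from male C57/BL6 mice 8 to 9 weeks old, fed chow. The 4 genotypes were wild type (WT, 3 arrays), NemoΔhepa with the loxP-flanked Nemo gene deleted in hepatocytes (Nemo KO, 3 arrays), NemoΔhepa crossed with constitutive TRAIL-/- (Nemo/TRAIL dKO, 2 arrays), and NemoΔhepa crossed with constitutive TNFR1-/- (Nemo/TNFR1 dKO, 3 arrays). All but WT thus lack Nemo in hepatocytes, and in the double knockouts TRAIL or TNFR1 is lost in every cell, the cholangiocytes included. The Cre driver, and whether WT mice carried the floxed allele, are not given in the sources used here. Nothing states that the arrays of a genotype came from separate mice, so a p-value here covers the spread between these arrays, which may be technical. Values are log2 expression values, on which 1 unit is a doubling, and a gene is said to have risen or fallen only at an adjusted p under 0.05 in limma's moderated test across 35556 probe sets.

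In healthy liver, cholangiocytes are a small minority beside hepatocytes and are told apart by keratins 7 and 19, Epcam and Sox9. When hepatocytes are injured or cannot renew themselves, small ductular cells with many of the same markers multiply around the portal tracts, a response called the ductular reaction, and hepatocytes themselves can begin to make Sox9 and some surface markers. Notch and YAP signals promote the biliary fate, and the cytokine TWEAK acts on duct cells through its receptor Fn14, the product of Tnfrsf12a. Because the RNA was from whole liver, more cells of a type and more RNA per cell cannot be told apart.

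The RefSeq table for GRCm38.p6 held promoters for 6 of the 10 genes, Krt7, Krt23, Epcam, Prom1, Tspan8 and Cldn7. The 250 bases before a transcription start listed in that table are shown for the 4 of them that rose against WT in at least 1 comparison below, so that genes that were higher together can be set side by side. They are Krt23 (chr11:99493121-99493370, minus strand), Epcam (chr17:87635729-87635978, plus strand), Prom1 (chr5:44101737-44101986, minus strand, the upstream one of 2 listed starts) and Tspan8 (chr10:115817034-115817283, plus strand). The annotated Prom1 and Tspan8 genes begin 311 and 467 bases further upstream than the starts used, so these 2 windows lie inside the annotated genes. Each is written 5′ to 3′ along the gene, and capitals mark matches to the motifs searched.
Krt23: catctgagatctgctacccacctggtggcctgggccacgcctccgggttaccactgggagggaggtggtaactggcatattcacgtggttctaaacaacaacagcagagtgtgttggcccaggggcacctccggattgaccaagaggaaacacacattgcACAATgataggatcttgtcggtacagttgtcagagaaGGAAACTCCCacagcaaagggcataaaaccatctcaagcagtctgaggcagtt
Epcam: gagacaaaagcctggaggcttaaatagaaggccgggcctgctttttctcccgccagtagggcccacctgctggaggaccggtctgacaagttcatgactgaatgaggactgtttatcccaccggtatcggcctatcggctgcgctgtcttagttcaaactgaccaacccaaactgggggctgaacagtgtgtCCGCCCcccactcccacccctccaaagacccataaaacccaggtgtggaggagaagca
Prom1: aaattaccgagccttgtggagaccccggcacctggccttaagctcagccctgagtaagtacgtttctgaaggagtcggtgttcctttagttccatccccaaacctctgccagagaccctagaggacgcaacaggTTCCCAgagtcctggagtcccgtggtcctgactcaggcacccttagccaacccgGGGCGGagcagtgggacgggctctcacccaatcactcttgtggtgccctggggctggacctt
Tspan8: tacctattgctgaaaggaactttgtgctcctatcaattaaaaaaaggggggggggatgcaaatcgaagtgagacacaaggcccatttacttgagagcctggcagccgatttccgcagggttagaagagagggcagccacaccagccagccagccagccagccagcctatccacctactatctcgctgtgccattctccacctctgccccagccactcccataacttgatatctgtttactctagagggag
The motifs, searched on both strands, were the TATA box TATAAA, the HNF1 half-site GTTAAT, the TEAD motif GGAATG, the RBPJ motif TGGGAA, the SOX motif ACAAT, the Sp1 motif GGGCGG and the NF-κB consensus. No matches overlapped. In Krt23 the capitals mark an ACAAT at 90 to 86 bases before the start and an NF-κB consensus match at 53 to 44 bases, the only such match among the 6 genes. Across all 27025 promoters of this length in the table, 28.2% held ACAAT and 7.03% held the NF-κB consensus. Epcam and Prom1 carried the Sp1 motif at 58 to 53 and at 62 to 57 bases, and Krt7 carried it as well, so that 3 of the 6 genes had it, against 33% of all promoters. Prom1 also held the reverse complement of the RBPJ motif (RBPJ is the DNA-binding partner of Notch) at 116 to 111 bases, a motif found in 21.5% of promoters. The Tspan8 window held none of these letters, the TEAD motif was found in Cldn7 alone (12.6% of promoters), and neither TATAAA (13%) nor GTTAAT (6.54%) occurred in any of the 6. The 6 windows thus had no searched motif in common. Such matches describe letters in a window and are not measured binding sites.

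Before the members are described, the arrays that stand apart are given. WT replicate 3 carried transcripts of pancreatic acinar cells: the mean of 16 acinar markers was 11.02 in this array and 5.27 to 5.55 in the other 10, and Cpb1, a pancreatic carboxypeptidase, measured 11.8 against 3.85 to 4.28. Pancreatic ducts make several of the markers examined here, so results are also given without this array. Hepatocyte markers averaged 12.30 to 12.57 in every array, and any 2 arrays correlated at 0.9794 to 0.9937 over all probe sets. Ikbkg, which encodes Nemo, measured 8.6 to 8.73 in WT and 8.12 to 8.56 in the 8 Nemo-deficient arrays. Tnfsf10, the TRAIL gene, measured 6.11 and 6.23 in Nemo/TRAIL dKO and 6.26 to 7.0 elsewhere, while Tnfrsf1a, the TNFR1 gene, measured 9.95 to 10.19 in Nemo/TNFR1 dKO and 9.93 to 10.09 in WT. In Nemo KO it was 10.19 to 10.41, and 10.39 to 10.43 with TRAIL also lost. Tnfrsf1a did not pass between Nemo/TNFR1 dKO and Nemo KO (log2 difference -0.27, adjusted p = 0.586). The deleted exons are not stated in the sources used here, and a probe set that lies outside them checks nothing. A code in the array names is shared by WT and Nemo KO and differs in each double knockout, and array numbers run with genotype. Genotype and array order cannot be told apart, nor can genotype and the code for either double knockout.

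Across the set, values were higher in Nemo-deficient liver for most markers, and the size of the difference varied widely between them. Bicc1 rose in all 3 Nemo-deficient genotypes, by 2.92-fold in Nemo KO, 2.48-fold in Nemo/TRAIL dKO and 2.29-fold in Nemo/TNFR1 dKO. Tspan8 rose in Nemo KO and Nemo/TRAIL dKO, Epcam in Nemo/TRAIL dKO, and Krt23 and Prom1 in Nemo/TNFR1 dKO. Krt19, a widely used cholangiocyte keratin, had a difference near 0 in each genotype with all arrays, and its sign turned with the WT array left out. Against WT, 2 of the 10 members rose in Nemo KO, where 6.08% of all probe sets rose and 3.21% fell. With TRAIL also lost, 3 members rose (4.91% of all probe sets rose and 2.64% fell), and with TNFR1 also lost it was 3 (5.83% and 3.35%). No member fell in these comparisons. The median difference of the members was 0.62, 0.73 and 0.69 in that order, and that of all probe sets was -0.054, -0.045 and -0.039. When the mean of the 3 Nemo-deficient genotypes was set against WT, 6 members rose (Bicc1, Cd24a, Tspan8, Epcam, Prom1 and Krt23), where 8.12% of all probe sets rose and 6.03% fell. These 4 comparisons share the same 3 WT arrays, so they are not independent of each other. The members were chosen with earlier results of these data known, so their counts beside these shares are no independent test of the set.

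The counts fell without WT replicate 1, whereas without WT replicate 3, the array with acinar transcripts, they were similar but some of the genes called were others. Without WT replicate 1, 1 member was called in Nemo KO, 1 in Nemo/TRAIL dKO, 2 in Nemo/TNFR1 dKO and 2 for the mean of the genotypes. Without WT replicate 3, the counts were 3, 3, 3 and 6. Tspan8 then missed the threshold in Nemo KO (1.15, adjusted p = 0.0713) and Nemo/TRAIL dKO (1.32, adjusted p = 0.0681). Cd24a (1.77, adjusted p = 0.0422) and Prom1 (0.87, adjusted p = 0.0436) passed in Nemo KO instead, and Prom1 passed in Nemo/TRAIL dKO (0.98, adjusted p = 0.0443). The count in Nemo/TRAIL dKO was 0 without its own replicate 1 and 1 without Nemo KO replicate 2. The count in Nemo KO was 1 when WT replicate 2 or any single Nemo KO array was left out, and 4 without Nemo/TNFR1 dKO replicate 3. Calls among all 35556 probe sets moved as well in the fits without 1 array. They ranged from 1933 to 3549 in Nemo KO (3304 with all arrays) and from 823 to 2884 in Nemo/TRAIL dKO (2684). In Nemo/TNFR1 dKO the range was 1926 to 3342 (3263), and over the mean of the genotypes 3432 to 5292 (5030).

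**Figure D1:**
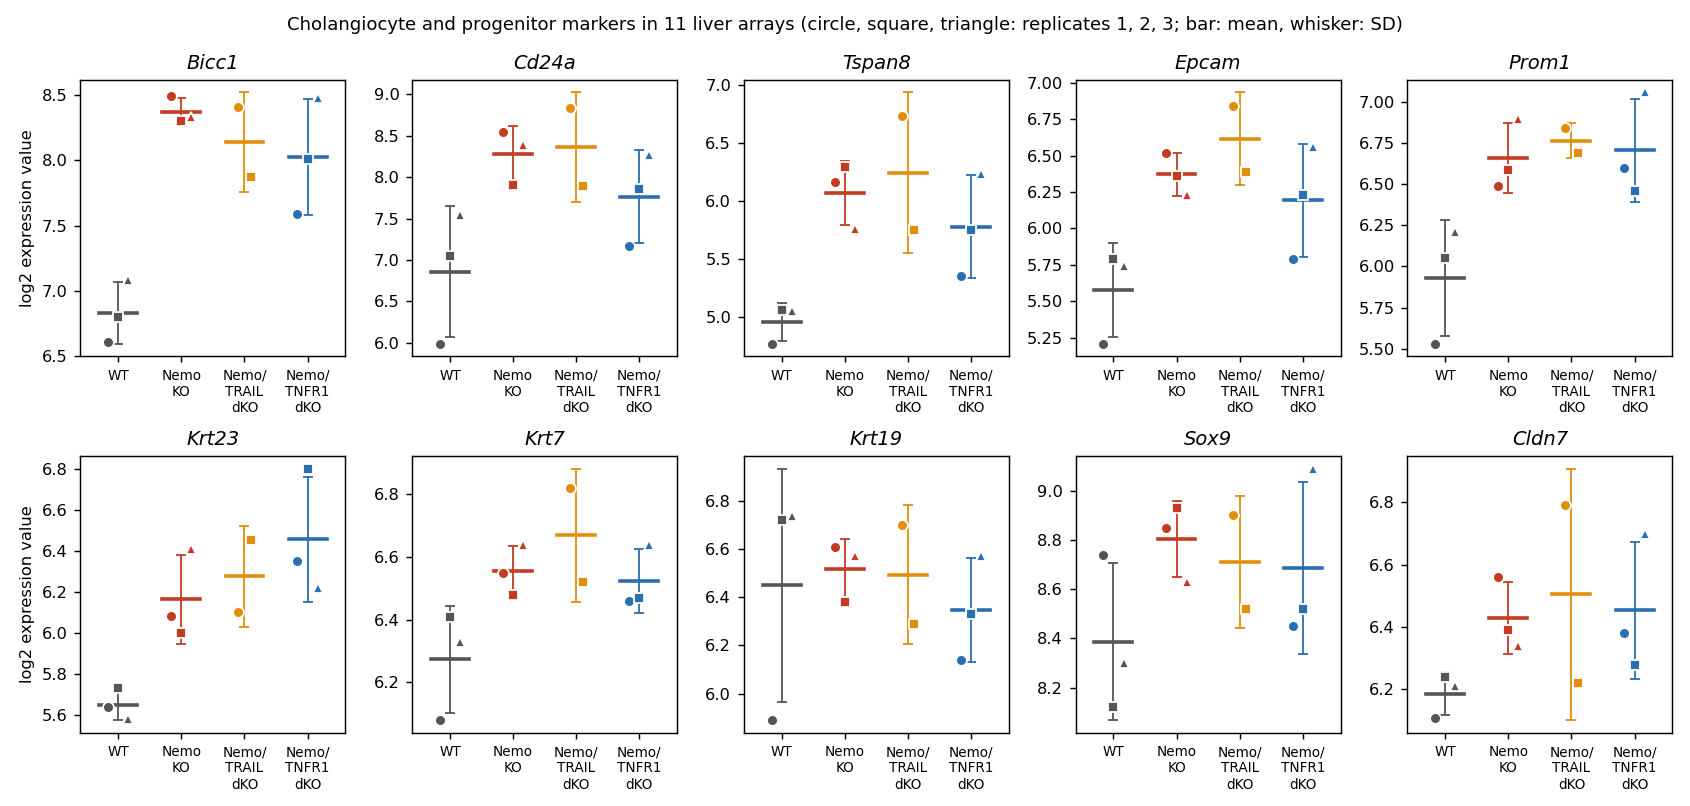
Log2 expression value (y axis) of each marker in every array, by genotype (x axis), with the mean as a bar and the SD as a whisker. All 8 Nemo-deficient arrays lie above the 3 WT arrays for Bicc1, Tspan8, Epcam, Prom1, Krt23 and Krt7, while for Krt19 none of the 8 lies above the highest WT array.

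The keratins, the intermediate filament proteins of epithelia, did not move as a group. Krt7, a keratin of duct epithelia, measured 6.08, 6.41 and 6.33 in WT, 6.55, 6.48 and 6.64 in Nemo KO, 6.82 and 6.52 for Nemo/TRAIL dKO, and 6.46, 6.47 and 6.64 for Nemo/TNFR1 dKO. Every Nemo-deficient array was above every WT array, but by a small margin. The log2 difference against WT was 0.28 ± 0.11 (SE, adjusted p = 0.146) in Nemo KO, 0.40 ± 0.12 (adjusted p = 0.0873) in Nemo/TRAIL dKO and 0.25 ± 0.11 (adjusted p = 0.209) in Nemo/TNFR1 dKO. None of these passed the test, and the mean over the genotypes, 0.31 ± 0.09, missed it narrowly (adjusted p = 0.0504).

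Krt19, a keratin of bile duct and other simple epithelia, measured 5.89, 6.72 and 6.74 in WT, 6.61, 6.38 and 6.57 in Nemo KO, 6.70 and 6.29 for Nemo/TRAIL dKO, and 6.14, 6.33 and 6.57 for Nemo/TNFR1 dKO. WT replicate 1 was the lowest of all 11 arrays and WT replicates 2 and 3 were the highest, so that all Nemo-deficient arrays lay inside the WT range. The difference was 0.07 in Nemo KO (95% interval -0.43 to 0.58, adjusted p = 0.862), 0.04 in Nemo/TRAIL dKO (-0.52 to 0.61, adjusted p = 0.948) and -0.10 in Nemo/TNFR1 dKO (-0.60 to 0.40, adjusted p = 0.83). Over the mean of the genotypes the interval ran from -0.41 to 0.42. These values moved with the WT arrays used. Without WT replicate 1 the differences were -0.21, -0.24 and -0.38 (adjusted p = 0.465, 0.497 and 0.191), and without WT replicate 3 they were 0.22, 0.19 and 0.04 (adjusted p = 0.63, 0.748 and 0.942).

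Krt23, a keratin made by ductular cells, measured 5.64, 5.73 and 5.58 in WT, 6.08, 6.0 and 6.41 in Nemo KO, 6.10 and 6.45 for Nemo/TRAIL dKO, and 6.35, 6.80 and 6.22 for Nemo/TNFR1 dKO. The WT arrays lay close together and below all the others. Krt23 rose 1.75-fold in Nemo/TNFR1 dKO (log2 difference 0.81 ± 0.16 SE, adjusted p = 0.0149). The difference in Nemo KO was 0.51 ± 0.16 (adjusted p = 0.0868) and in Nemo/TRAIL dKO 0.63 ± 0.18 (adjusted p = 0.0742). It rose over the mean of the genotypes (0.65 ± 0.14, adjusted p = 0.0122), and both of its calls held in all 11 fits that left out a single array.

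Among the surface and junction proteins, Epcam, Prom1 and Tspan8 were called in at least 1 genotype, and Cd24a and Cldn7 in no single genotype. Epcam, a cell adhesion molecule of epithelia that marks duct and progenitor cells, measured 5.21, 5.79 and 5.74 in WT, 6.52, 6.36 and 6.23 in Nemo KO, 6.84 and 6.39 for Nemo/TRAIL dKO, and 5.79, 6.23 and 6.56 for Nemo/TNFR1 dKO. Nemo/TNFR1 dKO replicate 1 was level, at 2 decimals, with the highest WT array, and the other Nemo-deficient arrays were clearly above it. Epcam rose 2.05-fold in Nemo/TRAIL dKO (1.03 ± 0.24 SE, adjusted p = 0.0327). The difference in Nemo KO was 0.79 ± 0.22 (adjusted p = 0.0529) and in Nemo/TNFR1 dKO 0.61 ± 0.22 (adjusted p = 0.124). The call in Nemo/TRAIL dKO held in 6 of 11 fits without 1 array and was lost without WT replicate 1, Nemo KO replicate 2, either Nemo/TRAIL dKO array or Nemo/TNFR1 dKO replicate 2 (adjusted p 0.0507 to 0.234). Over the mean of the genotypes Epcam rose by 0.81 ± 0.18 (adjusted p = 0.0165).

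Cd24a, a small glycoprotein on the surface of progenitor and biliary cells that some immune cells also carry, had the widest spread of the set. It measured 5.99, 7.05 and 7.54 in WT, 8.55, 7.91 and 8.39 in Nemo KO, 8.83 and 7.89 for Nemo/TRAIL dKO, and 7.17, 7.86 and 8.27 for Nemo/TNFR1 dKO. The WT arrays alone spanned more than 1 log2 unit, and Nemo/TNFR1 dKO replicate 1 fell inside their range while the other 7 Nemo-deficient arrays lay above it. The differences were 1.43 ± 0.42 (SE, adjusted p = 0.0685) in Nemo KO, 1.5 ± 0.47 (adjusted p = 0.0962) in Nemo/TRAIL dKO and 0.91 ± 0.42 (adjusted p = 0.241) in Nemo/TNFR1 dKO, none past the test. Cd24a rose over the mean of the genotypes (1.28 ± 0.35, adjusted p = 0.0405), a call that held in 4 of 11 fits without 1 array. It was lost without WT replicate 1 or 2, Nemo KO replicate 1 or 3, Nemo/TRAIL dKO replicate 1, or Nemo/TNFR1 dKO replicate 2 or 3 (adjusted p 0.063 to 0.151).

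Prom1, which encodes the membrane protein CD133 of progenitor cells, measured 5.53, 6.05 and 6.21 in WT, 6.49, 6.59 and 6.90 in Nemo KO, 6.84 and 6.69 for Nemo/TRAIL dKO, and 6.6, 6.46 and 7.06 for Nemo/TNFR1 dKO. No Nemo-deficient array overlapped WT. Prom1 rose 1.71-fold in Nemo/TNFR1 dKO (0.78 ± 0.20 SE, adjusted p = 0.0423), whereas differences of 0.73 ± 0.20 in Nemo KO (adjusted p = 0.0537) and 0.84 ± 0.23 in Nemo/TRAIL dKO (adjusted p = 0.056) missed the threshold, although the latter was larger than the difference that passed. The call in Nemo/TNFR1 dKO was kept in only 2 of 11 fits without 1 array, those without WT replicate 3 or Nemo KO replicate 3, and was lost in the others (adjusted p 0.0532 to 0.135). Over the mean of the genotypes Prom1 rose by 0.78 ± 0.17 (adjusted p = 0.0137).

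Tspan8, a tetraspanin of epithelial membranes, measured 4.77, 5.06 and 5.05 in WT, 6.16, 6.29 and 5.76 in Nemo KO, 6.73 and 5.75 for Nemo/TRAIL dKO, and 5.35, 5.75 and 6.23 for Nemo/TNFR1 dKO. Every Nemo-deficient array was above WT. Its log2 difference was 1.11 ± 0.28 in Nemo KO (2.16-fold, adjusted p = 0.0367), 1.28 ± 0.31 in Nemo/TRAIL dKO (2.42-fold, adjusted p = 0.0374) and 0.82 ± 0.28 in Nemo/TNFR1 dKO (adjusted p = 0.11), so that it rose in the first pair of genotypes. Each of these calls held in 4 of 11 fits without 1 array. In Nemo KO it was lost without any single WT or Nemo KO array or without Nemo/TNFR1 dKO replicate 2 (adjusted p 0.0523 to 0.119). In Nemo/TRAIL dKO it was lost without any single WT array, Nemo KO replicate 1 or 2, Nemo/TRAIL dKO replicate 1 or Nemo/TNFR1 dKO replicate 2 (adjusted p 0.0533 to 0.271). Over the mean of the genotypes it rose by 1.07 ± 0.23 (adjusted p = 0.0143). The calls of Epcam, Prom1 and Tspan8 over that mean held in 10 of 11 fits each and were lost without WT replicate 1 (adjusted p = 0.0739, 0.055 and 0.0649).

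Cldn7, a claudin of epithelial tight junctions, measured 6.11, 6.24 and 6.21 in WT, 6.56, 6.39 and 6.34 in Nemo KO, 6.79 and 6.22 for Nemo/TRAIL dKO, and 6.38, 6.28 and 6.70 for Nemo/TNFR1 dKO. Of the 8 Nemo-deficient arrays 7 were above the highest WT array, and Nemo/TRAIL dKO replicate 2 was not. Differences of 0.24 ± 0.15, 0.32 ± 0.17 and 0.27 ± 0.15 (SE) in the 3 genotypes, taken in the order above, did not pass the test (adjusted p = 0.35, 0.327 and 0.337).

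Sox9 encodes the transcription factor that marks biliary cells from the embryonic ductal plate onward. It measured 8.74, 8.12 and 8.30 in WT, 8.85, 8.93 and 8.63 in Nemo KO, 8.90 and 8.52 for Nemo/TRAIL dKO, and 8.45, 8.52 and 9.09 for Nemo/TNFR1 dKO. Here WT replicate 1 was the highest WT array, and 4 of the 8 Nemo-deficient arrays exceeded it. The differences were 0.41 ± 0.21 (SE, adjusted p = 0.248), 0.33 ± 0.23 (adjusted p = 0.471) and 0.30 ± 0.21 (adjusted p = 0.435) in the same order of genotypes. The interval of the mean over the genotypes, -0.04 to 0.73, includes 0 as well as a rise of about the size seen for Krt23.

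Bicc1 encodes an RNA-binding protein of tubular epithelia whose loss gives cysts in kidney and bile ducts. It measured 6.61, 6.80 and 7.08 in WT, 8.49, 8.30 and 8.33 in Nemo KO, 8.41 and 7.87 for Nemo/TRAIL dKO, and 7.59, 8.01 and 8.48 for Nemo/TNFR1 dKO. The gap between WT and the lowest Nemo-deficient array was wider than the whole WT range. Bicc1 rose by 1.55 ± 0.22 (SE, adjusted p = 0.00278) in Nemo KO, 1.31 ± 0.25 (adjusted p = 0.0124) in Nemo/TRAIL dKO and 1.20 ± 0.22 (adjusted p = 0.00939) in Nemo/TNFR1 dKO. The calls in Nemo KO and Nemo/TNFR1 dKO held in all 11 fits without 1 array, and that in Nemo/TRAIL dKO was lost only without that genotype's replicate 1 (1.04, adjusted p = 0.12). The gene's other probe set measured 5.90, 5.78 and 5.95 in WT, 7.23, 6.89 and 7.03 in Nemo KO, 6.88 and 6.73 for Nemo/TRAIL dKO, and 6.25, 6.76 and 7.18 for Nemo/TNFR1 dKO. It rose in all 3 genotypes too, by 1.17 ± 0.20 (adjusted p = 0.00594), 0.93 ± 0.22 (adjusted p = 0.0333) and 0.85 ± 0.20 (adjusted p = 0.0265).

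**Figure D2:**
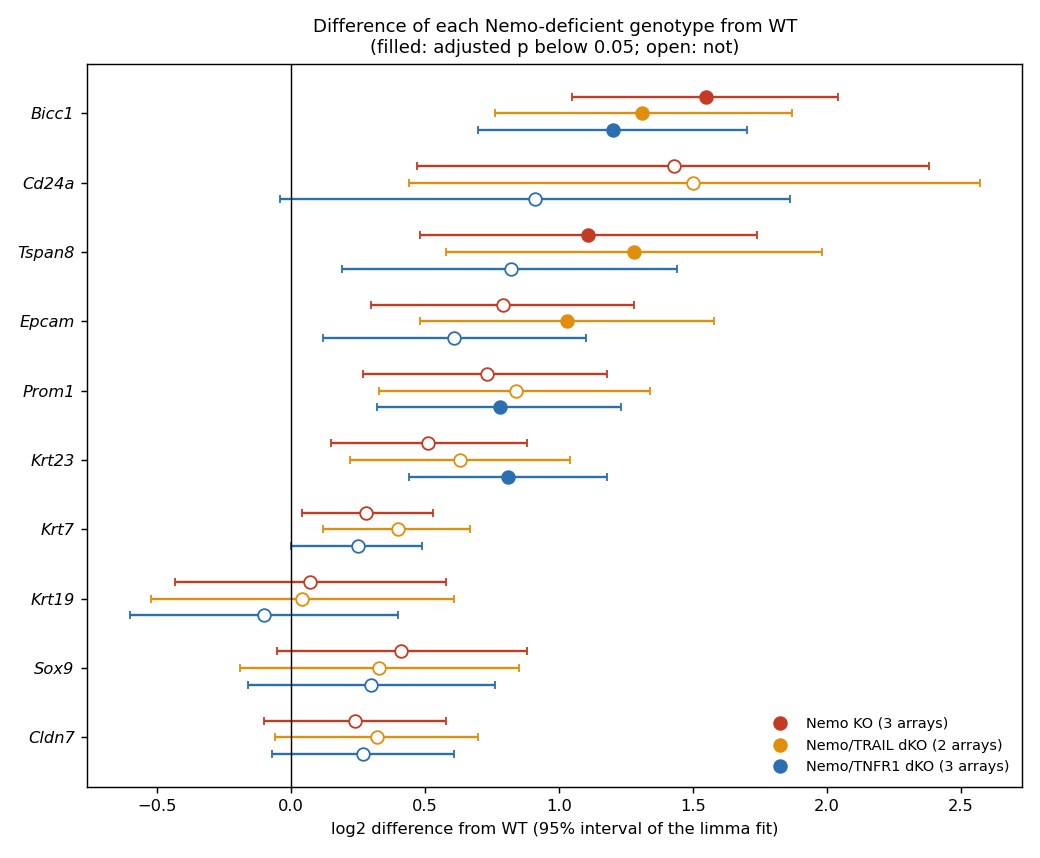
Log2 difference from WT (x axis) of each marker (y axis) in the 3 Nemo-deficient genotypes, with 95% intervals from the limma fit and filled points for adjusted p under 0.05. Bicc1 is filled in all 3 genotypes, and the Krt19 intervals lie on both sides of 0.

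Counted by arrays alone, 8 of the 10 members had no overlap with WT in Nemo KO (all but Krt19 and Sox9), where 12.8% of all probe sets lay wholly above WT. In Nemo/TRAIL dKO 7 did, all but Krt19, Sox9 and Cldn7 (14.7% of probe sets), and in Nemo/TNFR1 dKO 7 did, all but Krt19, Sox9 and Cd24a (11.6%). For all 8 Nemo-deficient arrays together it was 6 members, Krt7, Krt23, Epcam, Prom1, Bicc1 and Tspan8 (7.79%).

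Loss of TRAIL or of TNFR1 on top of Nemo was examined next, since the series asks what TNFR1 contributes to the disease of the Nemo-deficient liver. No member passed the test between Nemo-deficient genotypes, and none had an unadjusted p under 0.05 there. Few of all probe sets passed in limma's fit: 2 in Nemo/TRAIL dKO against Nemo KO, 12 in Nemo/TNFR1 dKO against Nemo KO and 17 between the double knockouts. That is 0.00562%, 0.0337% and 0.0478% of all probe sets, while 1436, 2440 and 1788 had an unadjusted p under 0.05. Bicc1 in Nemo/TNFR1 dKO was 0.35 below Nemo KO (95% interval of the difference -0.85 to 0.15), Cd24a was 0.52 below (-1.47 to 0.43) and Tspan8 0.29 below (-0.92 to 0.33). Krt23 went the other way, at 0.29 above Nemo KO (-0.08 to 0.66, adjusted p = 0.768). In Nemo/TRAIL dKO, Epcam differed from Nemo KO by 0.24 (-0.31 to 0.79), Bicc1 by -0.23 (-0.79 to 0.32) and Cd24a by 0.08 (-0.99 to 1.14). Between the double knockouts 1 member, Krt23, was higher in Nemo/TNFR1 dKO (0.18, -0.23 to 0.59) and 9 were lower, by up to 0.60 for Cd24a (-1.66 to 0.47). For Cd24a, the interval thus allows a change of more than 1 log2 unit toward lower values, and the test does not show that the genotypes are alike.

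The arrays of a genotype differed from each other in most markers at once. WT replicate 1 was the lowest WT array for 8 of the 10 genes, all but Krt23 and Sox9, whereas it was the lowest for 25.7% of the 19938 genes. Nemo/TRAIL dKO replicate 1 exceeded replicate 2 for 9 of 10, all but Krt23 (46.7% of all genes), and Nemo/TNFR1 dKO replicate 3 was the highest of its group for 9 of 10, again all but Krt23 (29%). The mean of the 10 genes was 6.06, 6.40 and 6.48 in the WT arrays, 7.09, 6.96 and 7.02 in Nemo KO, 7.30 and 6.86 for Nemo/TRAIL dKO, and 6.63, 6.87 and 7.18 for Nemo/TNFR1 dKO. The range inside Nemo/TNFR1 dKO was therefore wider than the distance between its lowest array and the highest WT array, and the 3 Nemo KO arrays were close together. Krt23 was among the exceptions in all 3 of these counts. The shift was not particular to the members. Of 19 other biliary genes, described below, 16 were higher in Nemo/TRAIL dKO replicate 1 than in replicate 2 (means 7.73 and 7.27). Nemo/TNFR1 dKO replicate 3 was the highest of its group for 12 of the 19. WT replicate 1 was the lowest WT array for 10 of them (mean 7.15 against 7.56 and 7.54). Macrophage markers, taken as a mean of 8 genes, were lowest in the same Nemo/TNFR1 dKO array 1 (8.84 against 9.24 and 9.29), and stellate cell markers were too (9.54 against 9.84 and 9.93). Neither separated the 2 Nemo/TRAIL dKO arrays, at 9.23 and 9.25 for macrophage and 9.67 and 9.6 for stellate markers. Their part in the spread of the markers was not tested.

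**Figure D3:**
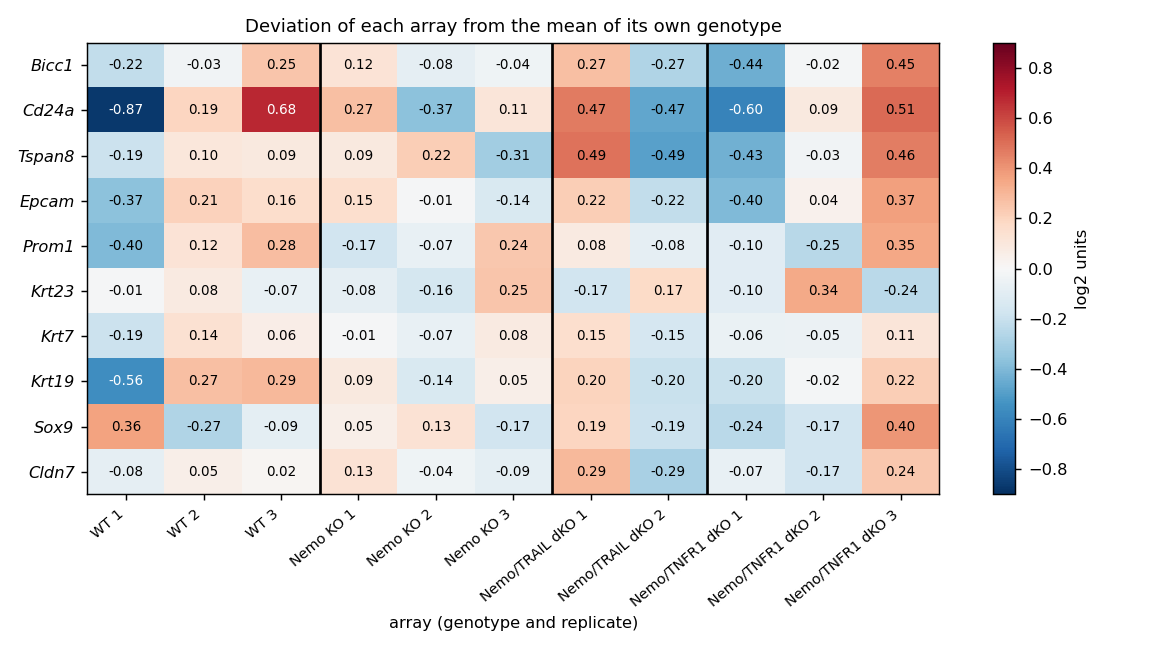
Deviation of each array from its genotype's mean (colour, log2 units) for each marker (rows) and array (columns). WT replicate 1 is below its mean for most markers, and Nemo/TRAIL dKO replicate 1 and Nemo/TNFR1 dKO replicate 3 are above theirs for 9 of the 10 genes, all but Krt23.

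The members with the widest range over the arrays were set beside the genes whose centred profiles lay closest to theirs among 19937 others, by root mean square distance over the 11 arrays. For Tspan8 the closest was another member, Epcam (0.20 log2 units), then Scara3 (0.21) and Slamf7 (0.21). For Cd24a they were Gm609 and Cd34 (0.25 each) and Cd63 (0.26), and for Bicc1 Rhob (0.12), Pdgfrb (0.13) and Plod2 (0.14). Pdgfrb, a receptor of stellate cells and other mesenchymal cells, is not a duct marker and had differences of 1.61, 1.38 and 1.38 from WT in the 3 genotypes in the same order, against 1.55, 1.31 and 1.20 for Bicc1. Slamf7 is a receptor of immune cells, and Cd34 marks endothelial and blood-forming cells.

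Further markers of bile duct epithelium were examined beside the members, with no test between the 2 lists. Of 19 measured genes of this kind, 4 rose and none fell in Nemo KO (median difference 0.29), 2 rose in Nemo/TRAIL dKO (0.28), 2 rose in Nemo/TNFR1 dKO (0.15), and 6 rose over the mean of the genotypes (0.29). Ddr1, a collagen-binding receptor kinase of epithelia, rose in each genotype, by 1.56 ± 0.24 (SE, adjusted p = 0.00438) in Nemo KO, 1.56 ± 0.27 (adjusted p = 0.0089) in Nemo/TRAIL dKO and 1.25 ± 0.24 (adjusted p = 0.0121) in Nemo/TNFR1 dKO. St14, a membrane serine protease, rose by 0.87 ± 0.17 in Nemo KO (adjusted p = 0.0115) and 0.75 ± 0.19 in Nemo/TRAIL dKO (adjusted p = 0.0412). Elf3, an epithelial transcription factor, rose by 0.86 ± 0.18 in Nemo KO (adjusted p = 0.0182). The mean of the 19 genes was 7.15 to 7.56 in WT and 7.27 to 7.73 in the Nemo-deficient arrays, so the groups overlapped. Without WT replicate 3, 2 of the 19 were called in Nemo KO, 1 in each double knockout and 2 over the mean of the genotypes. Without WT replicate 1, the genes called higher and lower were 3 and 1 in Nemo KO, 1 and 1 for Nemo/TRAIL dKO, 2 and 1 for Nemo/TNFR1 dKO, and 4 and 2 over the mean.

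Keratins 8 and 18, the pair that hepatocytes and cholangiocytes share, rose in every Nemo-deficient genotype. Krt8 measured 11.81, 11.57 and 11.74 in WT, 12.52, 13 and 12.91 in Nemo KO, 13.03 and 12.84 for Nemo/TRAIL dKO, and 12.6, 13.01 and 13 for Nemo/TNFR1 dKO, with no overlap. Its differences were 1.10 ± 0.15 (SE, adjusted p = 0.00223), 1.23 ± 0.17 (adjusted p = 0.00318) and 1.16 ± 0.15 (adjusted p = 0.0018), and those of Krt18 were 0.99 ± 0.20 (adjusted p = 0.0124), 1.19 ± 0.22 (adjusted p = 0.0107) and 1.08 ± 0.20 (adjusted p = 0.00811). The other 2 keratins of this list, Krt20 and Krt80, passed in none of these comparisons.

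Among 12 measured genes of progenitor or fetal liver, 6 rose in Nemo KO (median 0.42), 4 rose in Nemo/TRAIL dKO (0.32), 4 rose in Nemo/TNFR1 dKO (0.37), and none fell. Ly6d, a surface antigen of epithelial and lymphoid precursor cells, rose by 4.35 ± 0.51 (SE, adjusted p = 0.00114), 5.09 ± 0.57 (adjusted p = 0.00138) and 4.38 ± 0.51 (adjusted p = 0.00118). Igf2bp3, a fetal RNA-binding protein, rose by 1.59, 1.16 and 1.05, and Cd44, the hyaluronan receptor, by 0.91, 1.02 and 1.02. These genes are not specific to ducts, and Cd44 is also made by immune cells.

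Of the signals known to drive the biliary fate, the 14 Notch genes gave 4 higher and 1 lower call in Nemo KO (median 0.33), 1 and 1 in Nemo/TRAIL dKO (0.27), and 3 and 1 in Nemo/TNFR1 dKO (0.22). The list contains Sox9 itself. Hey1, a Notch target, rose by 0.59 ± 0.10, 0.52 ± 0.12 and 0.50 ± 0.10 (SE, adjusted p = 0.00751, 0.0266 and 0.0161). Jag1, the ligand that portal mesenchyme presents to duct precursors, rose by 0.62 ± 0.14 in Nemo KO (adjusted p = 0.0232) and 0.57 ± 0.14 in Nemo/TNFR1 dKO (adjusted p = 0.0337). The single gene that fell was Dll4, an endothelial Notch ligand, by 0.39, 0.34 and 0.54 on the log2 scale. Without WT replicate 3 the Notch genes called were 3, 1 and 3 in the 3 genotypes, and Dll4 did not pass without WT replicate 1 or 3 in Nemo/TRAIL dKO.

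Of 12 genes of the YAP and TEAD axis, 4 rose in Nemo KO (median 0.44), 3 rose in Nemo/TRAIL dKO (0.05), 4 rose in Nemo/TNFR1 dKO (0.31), and none fell. Ccn2, a secreted matrix protein and YAP target that stellate cells also make, rose by 1.62 ± 0.33 (SE, adjusted p = 0.0144), 1.47 ± 0.37 (adjusted p = 0.0417) and 1.3 ± 0.33 (adjusted p = 0.0388). Wwtr1, the YAP paralogue TAZ, rose by 0.76, 0.70 and 0.68. Without WT replicate 1 or without WT replicate 3, the counts became 2, 2 and 3 in the order of the genotypes.

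Growth signals for duct and progenitor cells were split. Hgf, the hepatocyte growth factor made by mesenchymal cells, rose by 1.36 ± 0.12 (SE, adjusted p = 0.000426), 1.12 ± 0.13 (adjusted p = 0.0017) and 1.29 ± 0.12 (adjusted p = 0.000482), while its receptor Met fell by 0.66, 0.61 and 0.54 on the log2 scale (adjusted p = 0.0074, 0.0202 and 0.02). Tnfrsf12a, the TWEAK receptor, rose by 0.90, 1.14 and 0.89, and it is also counted among the progenitor or fetal liver genes above. Of the 11 genes measured, 2 rose and 1 fell in Nemo KO and in Nemo/TNFR1 dKO, and 2 rose and 2 fell in Nemo/TRAIL dKO, where the second gene to fall was Fgfr2, a receptor for fibroblast growth factors. Without WT replicate 3, Met no longer passed in Nemo/TNFR1 dKO, and 1 gene of the list was called lower in Nemo/TRAIL dKO.

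Markers of other liver cells moved with the same contrasts. All 8 macrophage markers rose in each genotype (medians 1.38, 1.42 and 1.34), and their mean was 7.27 to 7.33 in WT and 8.84 to 9.29 in the Nemo-deficient arrays. Of 8 stellate cell markers 7, 6 and 7 rose (medians 0.89, 0.70 and 0.93), with a mean of 8.63 to 8.80 in WT and 9.54 to 10.03 in the others. All 7 cell division genes rose as well (medians 2.70, 2.55 and 2.74). None of 6 mesothelial markers, from the liver's surface layer, which shares keratins with ducts, passed in limma's fit, where 1, 0 and 1 had an unadjusted p under 0.05. Their mean was 6.0 to 6.13 in WT and 6.06 to 6.51 in the others. Of 11 hepatocyte markers, 2 fell in Nemo KO, Cebpa and Foxa2 (log2 difference -0.67 and -0.61, adjusted p = 0.0239 and 0.0211), and Cebpa fell in Nemo/TRAIL dKO (-0.7, adjusted p = 0.0384). None passed in Nemo/TNFR1 dKO in limma's fit, where 2 had an unadjusted p under 0.05. Without WT replicate 1, 1 hepatocyte marker was called lower in each genotype. It was Foxa2 (adjusted p = 0.0202, 0.0383 and 0.0435), while Cebpa passed in none. Without WT replicate 3 the counts were 1, 0 and 0, and the gene called was Cebpa in Nemo KO (adjusted p = 0.0461). The Cebpa call in Nemo/TRAIL dKO was thus lost without either array (adjusted p = 0.102 and 0.0621). Alb differed from WT by -0.01, 0.04 and 0.02. The part of these cells in the differences of the duct markers was not tested. Of 6 endothelial markers none passed in Nemo KO, 2 rose and 1 fell in Nemo/TRAIL dKO, and 1 rose in Nemo/TNFR1 dKO. Neutrophil markers gave 1 higher call in Nemo KO and in Nemo/TNFR1 dKO of 6 measured, and erythroid markers 1 lower call in the same genotypes of 5 measured. None of 5 B cell, 7 islet or 16 acinar markers passed in limma's fit, where at most 2 islet markers and 1 B cell marker had an unadjusted p under 0.05 in a genotype. The acinar median was -2.01 in Nemo KO, a value that rests on WT replicate 3. In the comparisons between Nemo-deficient genotypes, none of the 156 listed genes passed in limma's fit, and 5, 7 and 9 of them had an unadjusted p under 0.05 in Nemo/TRAIL dKO against Nemo KO, Nemo/TNFR1 dKO against Nemo KO and Nemo/TNFR1 dKO against Nemo/TRAIL dKO.

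**Figure D4:**
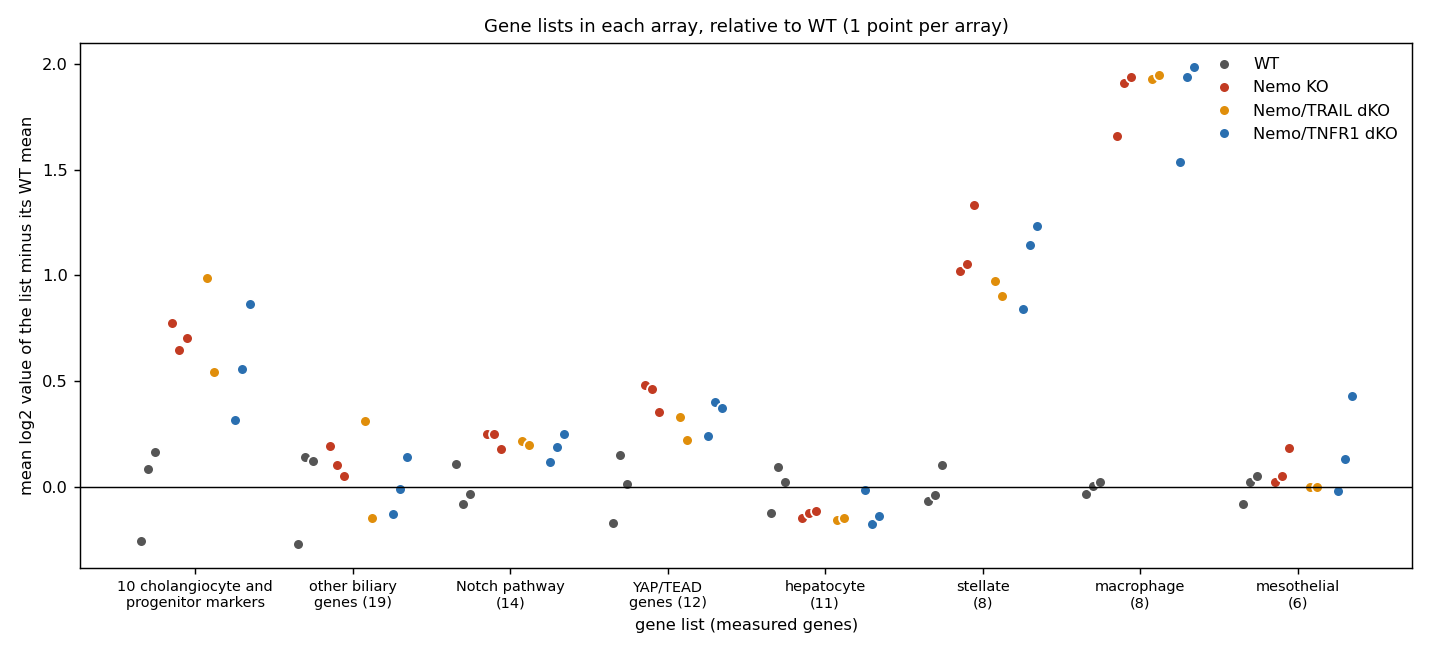
Mean log2 expression value of each gene list minus that list's WT mean (y axis, log2 units) for 8 lists (x axis, with the number of measured genes), 1 point per array, coloured by genotype. Macrophage markers, stellate cell markers, the 10 duct and progenitor markers and the YAP and TEAD genes separate WT from every Nemo-deficient array. The Notch genes do so narrowly (mean 7.42 in the highest WT array, 7.43 in the lowest Nemo-deficient array). The mean of the other biliary genes overlaps between genotypes, and it includes Dmbt1 and Onecut1, which varied widely within WT.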

How the data were processed

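Liver RNA of 11 mouse samples was measured on Affymetrix mouse whole-transcript arrays (MOGENE-1_0-ST-V1, per the labels). The deposited table holds log2 expression values for 35556 probe sets, which the authors made with RMA, per the submitters' processing notes. The version and the genome build are not given in the sources used here. RMA summarises probes and scales arrays to a common distribution, so a shift of all genes cannot be seen. The values were used as deposited, and 21789 probe sets carried 1 gene symbol. With R 4.3.3 and limma 3.58.1, 1 mean per genotype was fitted to all arrays (lmFit, eBayes, 7 residual and 2.51 prior degrees of freedom), with two-sided p-values adjusted by Benjamini-Hochberg over all probe sets in each of 7 comparisons and called under 0.05 with no fold threshold. The fit was tested on simulated data. The small number of arrays limits precision, and the median standard error of a difference was 0.102 between groups of 3.

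All 10 members were named. Of each other list, counts and at most 3 called genes with the largest differences in Nemo KO were named. Genes with larger differences in a double knockout, such as Ajuba of the YAP list and Heyl of the Notch list, were therefore left out. Dll4, Fgfr2, Dmbt1 and Onecut1 were chosen by name after seeing their values. The members and lists were chosen with earlier results of these data known. Alternatives were a variance trend, quantile normalization, a signal filter, single-symbol probe sets, only the groups compared, a replicate block, leaving out each array, and the other Bicc1 probe set. The counts of the lists and the values of Dmbt1, Onecut1, Cebpa and Foxa2 without WT replicate 1 or 3 were added after the data were seen. Same-numbered arrays did not deviate together (correlation of deviations from the genotype mean -0.12 to 0.04 over 15 pairs), so no pairing was used.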

Additional observations from a re-analysis of the deposited data

How the results depend on the processing

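No member's called difference changed sign under any alternative run. The number of members called kept within 1.5 times its value under the variance trend, quantile normalization, the filter at the median signal (which leaves out Krt23, Epcam and Tspan8) and the replicate block. With the 21789 single-symbol probe sets only, it was 6 in Nemo KO (2 in the report) and 7 in Nemo/TRAIL dKO (3 in the report). The share of those probe sets called in that fit is not given here, so these counts have no background beside them. With only the groups compared, it was 1 in Nemo/TRAIL dKO, and the probe sets called were 1244 there (2684 with all arrays) and 1831 in Nemo/TNFR1 dKO (3263 with all arrays). That setting could not be fitted for the mean of the genotypes, which uses all groups. In fits without 1 array, 1 to 4 members were called in Nemo KO, 0 to 4 in Nemo/TRAIL dKO, 2 to 3 in Nemo/TNFR1 dKO and 2 to 8 over the mean of the genotypes. The probe sets called then ranged from 1933 to 3549, from 823 to 2884, from 1926 to 3342 and from 3432 to 5292. Between Nemo-deficient genotypes no member was called in any fit, while the probe sets called were 4 (12 in the report) in Nemo/TNFR1 dKO against Nemo KO and 6 (17 in the report) against Nemo/TRAIL dKO with single-symbol probe sets, and 1 (2 in the report) in Nemo/TRAIL dKO against Nemo KO and 9 between the double knockouts with only the groups compared. Without 1 array they ranged from 0 to 5 in Nemo/TRAIL dKO against Nemo KO.

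With the replicate number as a block, Tspan8 missed the threshold in Nemo KO (0.0761) and Nemo/TRAIL dKO (0.0791; these and the following are adjusted p), as did Epcam in Nemo/TRAIL dKO (0.0538), while Prom1 passed in both (0.0171 and 0.0123), which left 2 members called in each. With only the groups compared, Epcam (0.0901) and Tspan8 (0.101) in Nemo/TRAIL dKO and Prom1 in Nemo/TNFR1 dKO (0.116) did not pass, and Epcam passed in Nemo KO (0.0433). Under single-symbol probe sets, Krt23, Epcam, Cd24a and Prom1 passed in Nemo KO (0.0443, 0.0231, 0.0311 and 0.0237). The cause of these changes was not tested. The Bicc1 call in Nemo KO held in all 7 alternatives other than leaving out arrays.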

Other observations

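Some further biliary genes were lower in Nemo-deficient liver without passing the test with all arrays, and these were singled out after their values were seen. Dmbt1, a secreted scavenger protein of duct epithelia, measured 5.6, 10.3 and 10.68 in WT, 6.87, 6.36 and 5.04 in Nemo KO, 6.45 and 5.06 for Nemo/TRAIL dKO, and 6.05, 5.89 and 5.79 for Nemo/TNFR1 dKO. The high WT arrays were replicates 2 and 3, and replicate 1 lay inside the range of the Nemo-deficient arrays. The difference of the mean over the genotypes was -2.94 ± 0.96 (SE, adjusted p = 0.0732 in limma's fit). It was -4.57 (adjusted p = 0.00116) without WT replicate 1, when Dmbt1 also passed in each genotype, and -2.03 (adjusted p = 0.25) without WT replicate 3. Onecut1, a transcription factor of bile duct and hepatocyte development, measured 8.94, 10.7 and 10.2 in WT and 7.77 to 9.52 in the Nemo-deficient arrays, with a difference of -1.20 ± 0.43 (adjusted p = 0.1). It was -1.7 (adjusted p = 0.0355) without WT replicate 1 and -1.07 (adjusted p = 0.241) without WT replicate 3. WT replicate 1, which was the lowest WT array for 8 of the 10 members, was the lowest for both of these genes too.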
